A study of Mus musculus with 12 samples.

Results

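The wild-type adult mouse spinal cord was described from 4 of the 12 libraries of the series, numbers 5, 6, 7 and 8. They were chosen because both the title and the library name call them WT. All 4 came from mice aged 8 weeks on the strain background B6J.Cg, carried the genotype tag C201R+/+, and had no treatment in the labels. The other libraries of the series carry the C201R change in Gars, the glycyl-tRNA synthetase gene, or have a title and a library name that differ in genotype, and were not used here. The tissue is given as spinal cord, with no level of the cord. The titles call 5 and 6 female and 7 and 8 male. Whether each library came from its own animal is not written in the labels, so the spread given here is the spread between these libraries, which may be technical.

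The sex-linked transcripts did not follow the titled sex in 3 of these libraries. Xist, the noncoding RNA that coats the inactive X chromosome, was at 0.02 TPM in libraries 5 and 6, 0.01 in library 7 and 108.75 in library 8. Ddx3y, a helicase gene on the Y chromosome, was at 32.2, 25.8 and 33.8 TPM in libraries 5, 6 and 7 and 0.02 in library 8. The other Y-linked genes listed (Eif2s3y, Uty and Kdm5d) were likewise above 8 TPM in libraries 5, 6 and 7 and under 1 TPM in library 8. Libraries 5 and 6, titled female, thus carried Y-linked RNA and library 8, titled male, carried Xist. No value below is grouped by sex. The wild-type genotype of these libraries also rests on their labels and was not tested against the reads. TPM, the unit of all levels here, is a level per unit of transcript length that sums to the same total in each library, so levels of different genes are compared on that scale throughout.

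The spinal cord joins the brain to the body. Its white matter holds long axons wrapped in myelin by oligodendrocytes. Its grey matter holds sensory relay neurons and interneurons in the dorsal horn, and motor neurons with their interneurons in the ventral horn. Excitatory interneurons release glutamate, inhibitory ones release GABA, glycine or both, and neuropeptides mark subsets of dorsal horn cells. Position along the cord is recorded by Hox genes, whose order in each cluster follows the body axis from head to tail. In whole tissue, fewer cells of a type and less RNA per cell cannot be told apart.

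Upstream sequences of 3 neuropeptide genes are shown because neuropeptide genes spanned a wide range of levels and their promoters could be searched for known motifs. Each sequence is 60 bases, 5′ to 3′ on the gene's strand, from RefSeq on GRCm38.p6, with the matched motif in capitals.
Sst: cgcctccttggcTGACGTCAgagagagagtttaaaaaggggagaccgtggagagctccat
Cartpt: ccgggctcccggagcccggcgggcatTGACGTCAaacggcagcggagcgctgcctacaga
Vip: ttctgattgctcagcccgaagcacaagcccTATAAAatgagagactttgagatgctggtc
The first lies at chr16:23890845-23890904 on the minus strand and the second at chr13:99900762-99900821 on the minus strand, and the capitals mark TGACGTCA, the full cAMP response element. The third lies at chr10:5639158-5639217 on the plus strand, and the capitals mark TATAAA, which is a form of the TATA box. Sequences of 19 of the 25 spinal neuropeptide genes were matched, with 21 start sites. TGACGTCA, searched on both strands from 250 bases before to 50 bases after the start, was present at 3 of these sites (14.3%), those of Sst, Cartpt and Ucn, against 1.79% of all 32851 promoters. It was also at 2 of 17 pan-neuronal sites (11.8%). Of the 30 highest nuclear genes 15 were matched, and it was at 1 of their 26 sites (3.85%). The oligodendrocyte, astrocyte, Hox and skeletal muscle lists had 0 of 17, 17, 23 and 8 sites. TATAAA, searched on both strands between 50 and 11 bases before the start, was present at 2 neuropeptide sites (9.52%), those of Vip and Nppb, against 3.15% of all promoters. It was at 2 of 8 skeletal muscle sites (25%) and 3 of 26 sites of the 30 highest nuclear genes (11.5%). The pan-neuronal and astrocyte lists each had it at 1 of 17 sites (5.88%). The oligodendrocyte and Hox lists had 0 of 17 and 23 sites. With so few sites in a list, none of these shares, nor a share of 0, is read as a trait of that list. The peptide genes with TGACGTCA spanned the range of peptide levels: Sst had a mean of 205.5 TPM, Cartpt 17.4 and Ucn 0.45. No level was tested against a motif.

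The libraries were of like depth. The sum of expected counts was between 27175421 in library 8 and 33386301 in library 5, and 22057 to 22551 of the 38924 listed genes had a count above 0. The 6 pairs of libraries had Pearson correlations of log2(TPM + 1) from 0.9782 to 0.9824 across 21422 genes, which are not independent replicates. A mean of at least 1 TPM was found for 16133 genes, at least 10 TPM for 9995, at least 100 TPM for 1428 and at least 1000 TPM for 66. The median of the gene means at or above 1 TPM was 16.2 TPM.

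A few transcripts made up a large share of the RNA. The 100 highest genes of each library held 40.4, 37.1, 37.9 and 39.3% of its TPM in libraries 5 to 8 (38.7% ± 1.48, SD, n = 4). The 37 mitochondrially encoded genes held 23.5, 19.3, 23.2 and 23.0% (22.2% ± 1.99, SD, n = 4), with library 6 below the others. These genes encode subunits of the respiratory chain and the ribosomal and transfer RNAs of the mitochondrion. The cytochrome oxidase subunit mt-Co1 was even across libraries, at 27539, 28375, 28259 and 27372 TPM. The ATP synthase subunit mt-Atp8 was less even, at 49602, 21617, 46931 and 45097 TPM, and mt-Nd3, a subunit of complex I, was at 7511, 4821, 7146 and 7378 TPM. Both were lowest in library 6. The effective length of mt-Atp8 in the files was 66.5 to 72.3 bases, and its expected counts were 60602, 21809, 51964 and 47030. As a share of expected counts, not of TPM, the mitochondrial genes held 8.21% ± 0.375 (SD, n = 4).

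Myelin genes led the nuclear transcripts with a known product. Mbp, which encodes myelin basic protein, was at 16786, 17413, 16578 and 15502 TPM in libraries 5 to 8 (16570 ± 796, SD, n = 4). Mobp, a further myelin protein gene, was at 2750, 2962, 2858 and 2835 TPM. The ferritin heavy chain gene Fth1, which stores iron, stood between Mbp and Mobp with 10451, 11922, 11112 and 10712 TPM.

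Other genes among the 30 highest nuclear ones belonged to several known cell types. Apoe, the lipid carrier made by astrocytes in the nervous system, had a mean of 2428 TPM ± 124 (SD, n = 4). Neuronal genes in this set were Snap25, a protein of synaptic vesicle fusion, at 1908 TPM, and the neurofilament genes Nefm and Nefl at 1448 and 1248 TPM. Genes of energy use were Ckb, brain creatine kinase, at 2085 TPM, Gapdh at 2100 TPM, and the aldolases Aldoa and Aldoc at 1369 and 1362 TPM. Of the 29 neighbours in the order of these 30 genes, 5 pairs had ranges over the libraries that did not overlap, so most of the order below Mobp was not separated by the libraries.

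Gm26924 and Gm15662 stood among the 3 highest of the nuclear-encoded genes, with wide spread. Gm26924 was at 24586, 22516, 8875 and 22858 TPM, and Gm15662 at 14198, 17463, 5037 and 11816 TPM. Library 7 was lowest for both, and also for Lars2, a mitochondrial leucyl-tRNA synthetase gene, at 1658, 1575, 582 and 1345 TPM. These 3 genes and mmu-mir-6236 were grouped here as like ribosomal RNA. Together they held 1.47% of TPM in library 7 and 3.66 to 4.23% in the others. Whether their reads came from ribosomal RNA was not tested, so their values are not read as levels of the named genes. Gm15662 had an effective length of 29.7 to 34.1 bases. Gm10222 had the same TPM as mt-Nd4l in each library, between 6943 and 7164, and all 270 of the 25-base words in its annotated transcript were also in mt-Nd4l, so reads of these 2 genes cannot be told apart.

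**Figure D1:**
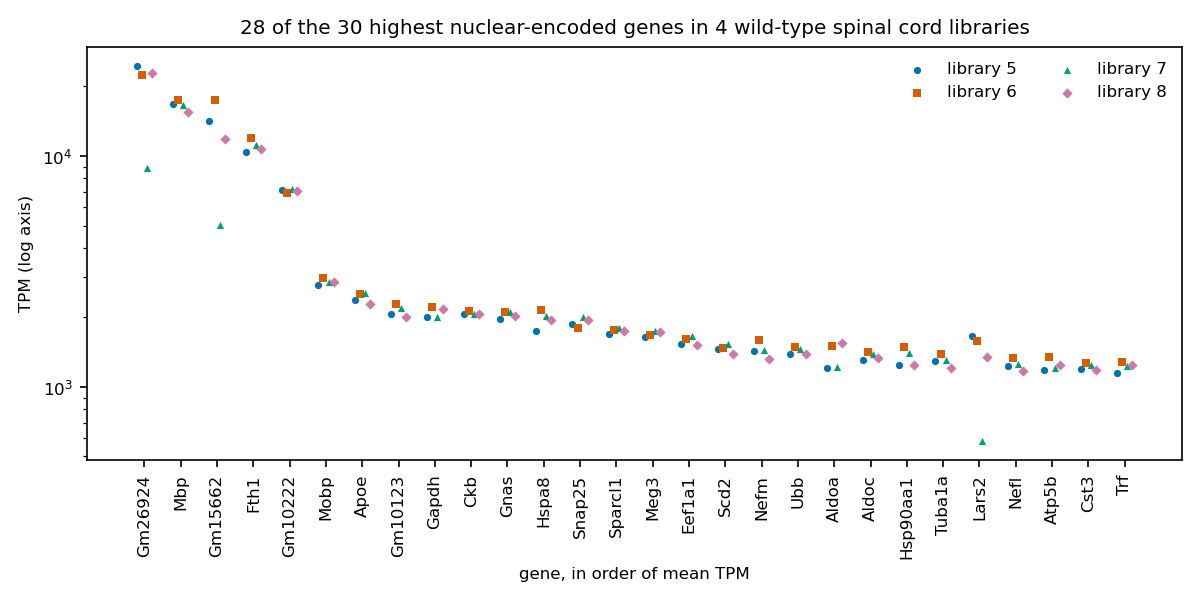
TPM on a log axis of 28 of the 30 highest nuclear-encoded genes, in order of their mean, with 1 point for each of the 4 libraries. The points of Mbp, Fth1 and Mobp are close together over the libraries, while Gm26924, Gm15662 and Lars2 are lowest in library 7.

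Markers of each known cord cell type were present at levels that differed by type. All 20 oligodendrocyte markers were above 10 TPM, with a median of 256.6 TPM over the list. Of 16 astrocyte markers all were above 10 TPM, with a median of 187.3 TPM, and of 20 pan-neuronal genes all were above 10 TPM, with a median of 479.6 TPM. Microglial genes were lower: all 17 were above 1 TPM and the median was 16.9 TPM. Over all genes at or above 1 TPM the median was 16.2 TPM. The lists hold known markers, so their high levels describe the tissue and were not tested.

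The oligodendrocyte list summed to 31333, 31918, 31598 and 29708 TPM (31139 ± 984, SD, n = 4), which was 3.11% of all TPM. Besides the myelin genes, its highest members were Trf, the iron carrier transferrin, at 1225 TPM ± 57.9 and Apod, a lipid carrier, at 1051 TPM ± 79.8 (SD, n = 4). The lowest member was Nkx6-2, a transcription factor of mature oligodendrocytes, at 38.6 TPM. The 9 precursor markers had a lower median, 15.7 against 256.6 TPM, and the highest of them overlapped the lowest of the oligodendrocyte list. Ptprz1, a receptor phosphatase of precursors and astrocytes, was at 46.1, 45.1, 49.7 and 43.6 TPM. Enpp6, found in newly forming oligodendrocytes, was at 39.8, 43.2, 40.6 and 39.2 TPM, and Gpr17, a receptor of committed precursors, between 23.9 TPM in library 6 and 29.7 TPM in library 8. All 9 were above 1 TPM, and Lhfpl3 was not analysed here.

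Astrocyte genes were led by Aldoc and by Gfap, the intermediate filament of astrocytes, which was at 1065, 1153, 1149 and 1084 TPM. S100b, a calcium-binding protein, had a mean of 847.7 TPM. The glutamate transporter Slc1a2, which clears glutamate from synapses, was at 517.1, 523.6, 529.0 and 523.0 TPM, with little spread. Aqp4, the water channel of astrocyte endfeet, was at 260.0, 234.0, 272.0 and 260.7 TPM. The lowest member was Aldh1l1, an enzyme of folate metabolism, at 46.3 TPM.

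Among the higher microglial genes was Ctss, a lysosomal protease gene, at 74.2, 77.6, 82.9 and 68.1 TPM. The complement genes C1qa, C1qb and C1qc had means of 53.3, 50.2 and 41.9 TPM. Gpr34 was the lowest at 6.16 TPM. Perivascular macrophage genes were lower still: Pf4, F13a1, Cbr2 and Mrc1 had means of 3.11, 1.65, 1.45 and 1.02 TPM, and Lyve1, Cd163 and Ms4a7 were under 1 TPM.

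Vascular genes were present at middle levels. Slc2a1, the glucose transporter of the barrier endothelium, was at 105.2, 115.7, 121.0 and 107.8 TPM. Cldn5, the tight junction protein of these cells, was at 39.4, 34.1, 32.4 and 51.1 TPM, highest in library 8, and all 15 endothelial genes were above 1 TPM. Rgs5, a pericyte gene, was at 68.0, 66.5, 70.1 and 73.9 TPM. Des, on the pericyte and smooth muscle list, was at 8.17, 22.2, 2.31 and 31.6 TPM, and is also expressed by skeletal muscle, whose genes had the same order of libraries (below). The smooth muscle gene Cnn1 was at 0.46 TPM.

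Ependymal genes were sparse. Foxj1, the transcription factor of motile cilia, was at 22.5, 25.9, 22.4 and 24.97 TPM. The other 9 members had means of 13.9 TPM or less, with Hydin, a ciliary protein gene, lowest at 0.74 TPM. Pkd2l1, the channel of neurons that contact the cerebrospinal fluid, was at 10.7, 10.4, 9.18 and 8.72 TPM. Fibroblast genes of the meninges and vessels included Ptgds, prostaglandin D synthase, at 918.7, 1120, 1236 and 1041 TPM, a gene that oligodendrocytes also express. The collagen gene Col1a2 was at 35.7, 52.2, 37.1 and 27.7 TPM, and Slc22a6 was lowest at 0.24 TPM.

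**Figure D2:**
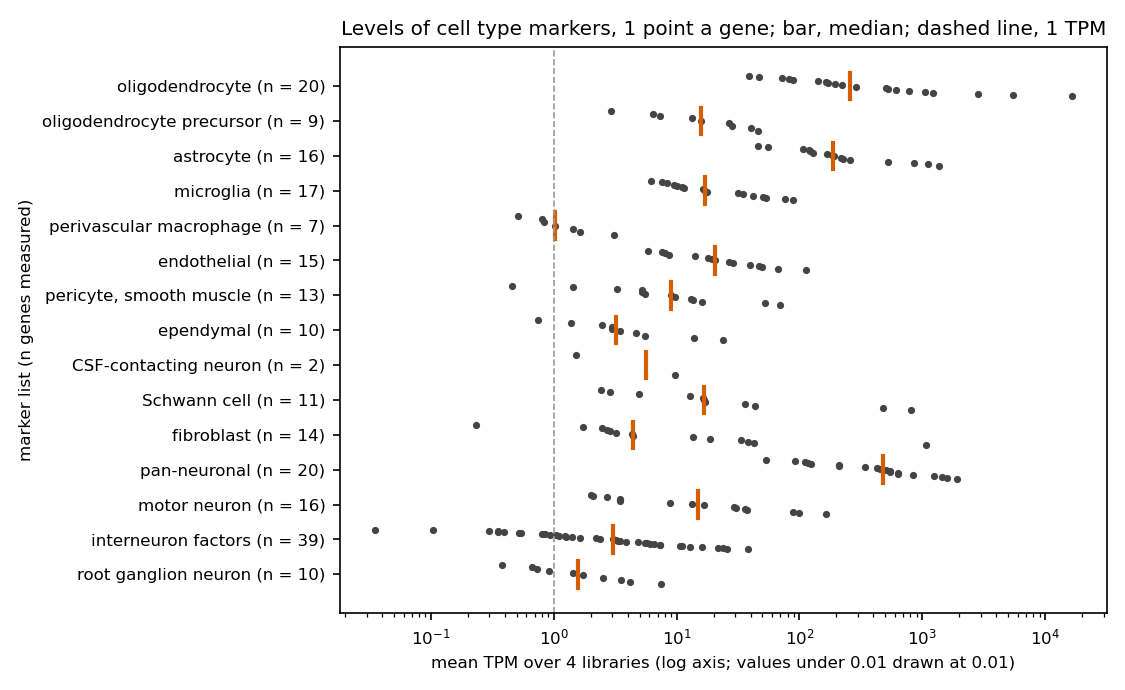
Mean TPM over 4 libraries on a log axis for the members of 15 marker lists, 1 point for each gene, with the list's median as a bar and 1 TPM as a dashed line. Oligodendrocyte, astrocyte and pan-neuronal medians are above 100 TPM, and those of perivascular macrophage and root ganglion neuron genes are 1.02 and 1.59 TPM.

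Motor neuron genes were present in all 4 libraries. Chat, choline acetyltransferase, was at 15.7, 18.54, 17.2 and 15.7 TPM, and Slc5a7, the choline transporter, at 37.1, 35.1, 36.9 and 35.9 TPM. Mnx1, a transcription factor of motor neurons, was the lowest of 16 members, at 1.94, 2.39, 2.09 and 1.69 TPM. Spp1, Ahnak2, Prph and Ret had means of 163.3, 98.9, 88.5 and 37.2 TPM. Prph, the intermediate filament peripherin of motor and sensory neurons, was at 85.5, 127.6, 74.5 and 66.4 TPM, and 11 of the 16 list members were highest in library 6, the library that was also highest in sensory ganglion genes (below). The share of all genes highest in library 6 was not computed, and the part of the sensory ganglion genes in this order was not tested.

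Transcription factors of spinal interneurons were low but even. Of 39 factors analysed, 28 had a mean of at least 1 TPM and 8 of at least 10 TPM. None of those at or above 1 TPM had an excess CV of 0.25 or more. Over all genes the share that did was 15.5% from 1 to 10 TPM and 2.19% from 10 to 100 TPM. The summed list was 234.3, 237.8, 245.6 and 234.8 TPM. Nfia and Nfib, factors of late-born neurons and of glia, had means of 37.9 and 25.8 TPM. Satb1, Maf and Pax2 had means of 24.0, 21.9 and 16.2 TPM. Pax2, a factor of inhibitory dorsal horn neurons, was at 17.5, 16.2, 15.7 and 15.3 TPM. Ptf1a, which acts in the embryo, had 3 expected counts in library 7 and 0 in the others. Outside the naming rule, and chosen after their values were seen, Lbx1, Lmx1b and Tlx3, factors of dorsal neurons, were at 10.7, 7.36 and 4.88 TPM, and Gata3, a factor of ventral V2 neurons, at 1.11 TPM.

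Glutamate genes showed 1 main vesicular transporter. Slc17a6, which encodes VGLUT2, was at 81.5, 77.3, 89.1 and 87.4 TPM (83.8 ± 5.46, SD, n = 4). Slc17a7, which encodes VGLUT1, was at 3.33, 4.39, 2.76 and 2.2 TPM, and Slc17a8, which encodes VGLUT3, at 0.72, 0.63, 0.54 and 0.96 TPM. Within each library Slc17a6 was 17.6 to 39.7 times Slc17a7. Glul, the glutamine synthetase of astrocytes, had a mean of 1154 TPM, and the glutaminase Gls2 had a mean of 35.8 TPM. Slc1a1, a neuronal glutamate transporter, was at 49.2 TPM.

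Of the 8 genes of GABA and glycine supply, 7 had a higher mean TPM than Slc17a6, and Gad2 had a lower one. Slc32a1, the vesicular transporter shared by GABA and glycine neurons, was at 111.3, 107.0, 112.5 and 117.6 TPM (112.1 ± 4.34, SD, n = 4). Its TPM was 1.37, 1.38, 1.26 and 1.34 times that of Slc17a6 in libraries 5 to 8 (1.34 ± 0.0537, SD, n = 4). The ratio of their expected counts, which grow with transcript length, was 0.852, so the order of these 2 genes depended on the scale. Slc6a5, the neuronal glycine transporter GLYT2, was at 126.0, 124.9, 128.0 and 135.1 TPM, and its range did not overlap that of Slc32a1.

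GABA synthesis rested on both known enzymes. Gad1 was at 92.1, 83.3, 104.9 and 97.7 TPM and Gad2 at 38.8, 35.5, 42.7 and 41.2 TPM, a Gad1 to Gad2 ratio of 2.35 to 2.45. Transporters that take up GABA or glycine into glia and neurons were higher: Slc6a9, the glial glycine transporter GLYT1, had a mean of 234.8 TPM, and Slc6a11, the GABA transporter GAT3, of 224.4 TPM. Abat, the enzyme that breaks down GABA, had a mean of 254.8 TPM. All 8 genes of this list were above 10 TPM and none had an excess CV of 0.25 or more. Over all genes the share that did was 2.19% from 10 to 100 TPM and 1.76% from 100 to 1000 TPM. A count of 0 in this list was thus close to that share.

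Acetylcholine genes besides Chat and Slc5a7 were those of breakdown. Ache, acetylcholinesterase, was at 150.3, 159.4, 161.1 and 148.9 TPM, and Bche, butyrylcholinesterase, at 4.91 TPM. Slc18a3, the vesicular acetylcholine transporter, was not analysed here.

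Genes that make and carry monoamines ranged from no more than a few counts to 11.3 TPM. Serotonin and noradrenaline reach the cord in axons from the brainstem, whose cell bodies lie outside it. Tph2, which starts neuronal serotonin synthesis, was at 0.27, 0.32, 0.36 and 0.45 TPM, from 12 to 16 expected counts in each library. Dbh, which makes noradrenaline, had 0, 0, 3 and 1 expected counts, and the serotonin transporter Slc6a4 had 7, 6, 1 and 2. Th, tyrosine hydroxylase, was at 2.97, 3.71, 3.97 and 3.19 TPM, and Ddc, the decarboxylase that follows it, at 10.7, 10.5, 11.4 and 12.8 TPM. The breakdown enzymes Maoa and Maob had means of 27.2 and 16.8 TPM. Of the 16 monoamine genes, 8 were under 1 TPM, and a count of 3 corresponded to up to 0.16 TPM for Dbh.

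Spinal neuropeptide genes spanned a wide range of levels. Of 25, 21 had a mean of at least 1 TPM and 13 of at least 10 TPM. Sst, the somatostatin precursor, was at 200.3, 175.7, 225.5 and 220.6 TPM (205.5 ± 22.7, SD, n = 4). Penk, the enkephalin precursor, was at 193.2, 185.4, 231.3 and 169.3 TPM, so the ranges of these 2 genes overlapped and together they stood clear of the rest. Calca, the CGRP precursor of motor and sensory neurons, was at 69.0, 109.3, 55.2 and 60.6 TPM, with library 6 highest. Tac2, the neurokinin B precursor, Cck, cholecystokinin, and Tac1, the substance P precursor, had means of 61.9, 56.9 and 41.2 TPM. Npy, Nts, Adcyap1, Cartpt and Calcb had means of 34.2, 21.7, 18.4, 17.4 and 16.4 TPM.

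Lower peptide genes included several known markers of dorsal horn subsets. Gal, Grp, Pdyn, Pnoc, Nmu and Npff had means between 7.60 and 11.1 TPM. Pdyn, the dynorphin precursor, was at 9.09, 9.09, 10.9 and 8.94 TPM. Nmb, neuromedin B, was at 4.97, 13.3, 4.00 and 3.63 TPM, and without library 6 its mean was 4.20 in place of 6.47 TPM. Vip, Trh and Crh were at 3.48, 2.80 and 1.14 TPM, and Ucn3, Ucn, Nppb and Tac4 were under 1 TPM. Of the 25 peptide genes, 13 were highest in library 7. The share of all genes highest in that library was not computed, so this count is not read as a trait of peptide genes. Over all 16133 genes at or above 1 TPM, 14.8% were lowest in library 7 and 37.6% in library 5. Of 24 neighbours in the order of peptide genes, 4 pairs had ranges that did not overlap.

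Peptide genes of the hypothalamus were near the floor, apart from Pomc, the melanocortin precursor, at 1.97 TPM. Gnrh1 had a mean of 1.23 TPM, from only 4, 9, 9 and 7 expected counts, where a count of 3 corresponded to up to 0.54 TPM. Avp, the vasopressin precursor, had 0 counts in all 4 libraries, where a count of 3 corresponded to up to 0.471 TPM. Agrp, Pmch, Hcrt, Oxt and Kiss1 had means from 0.04 to 0.77 TPM.

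**Figure D3:**
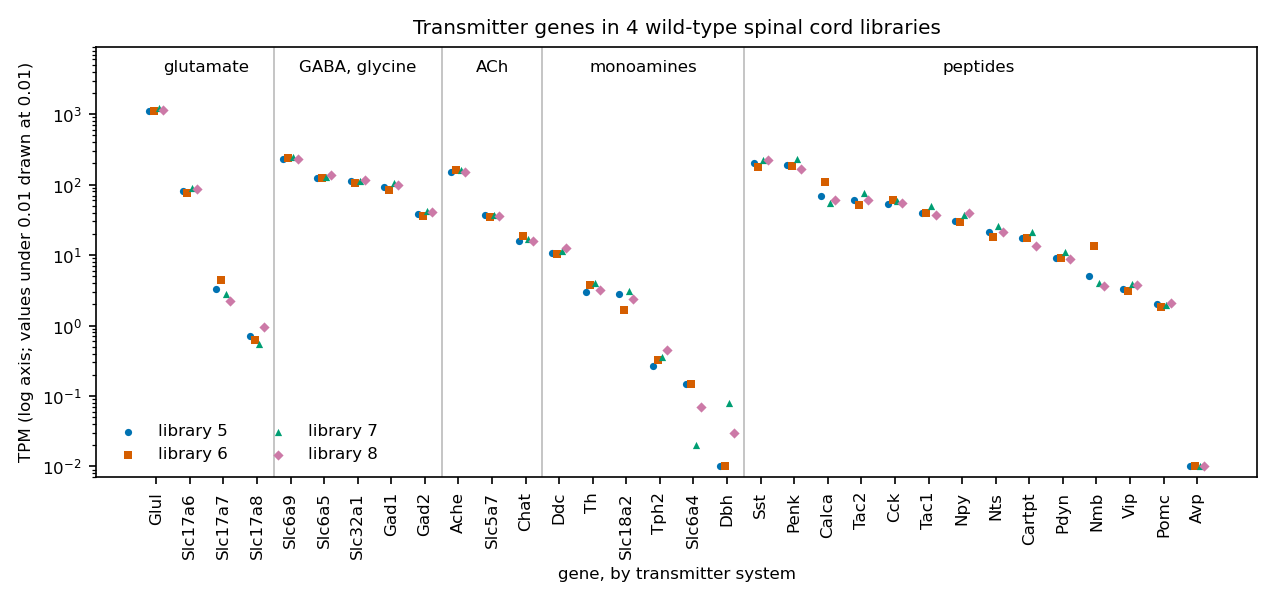
TPM on a log axis of 32 transmitter genes grouped by system, with 1 point for each of the 4 libraries and values under 0.01 drawn at 0.01. Slc17a6 is above Slc17a7 and Slc17a8, the monoamine genes Tph2, Slc6a4 and Dbh are under 1 TPM, and Calca and Nmb are highest in library 6.

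Fast excitatory receptors were present in all families. Of the AMPA receptor subunits, Gria4 was the highest, at 86.1, 81.5, 88.7 and 84.6 TPM, and was 1.54 to 1.87 times Gria2, the subunit that blocks calcium entry. Gria1, Gria2 and Gria3 had means of 58.2, 52.2 and 45.7 TPM. Grin1, the NMDA receptor subunit present in every such receptor, was at 164.7, 165.4, 170.4 and 163.1 TPM. Among its partners Grin2d and Grin3a each had a mean of 20.8 TPM, Grin2b 11.8 TPM and Grin2a 9.20 TPM, and Grin2d was 2.18 to 2.40 times Grin2a. Grik5, a kainate receptor subunit, had a mean of 44.8 TPM, and Grm5, the highest metabotropic receptor gene, of 36.6 TPM. Grm6, the receptor of retinal bipolar cells, was at 0.01 TPM.

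Levels of the glycine and GABA receptor genes differed widely between subunits. The medians were 8.04 TPM over 5 glycine receptor genes and 7.99 TPM over 19 GABA-A receptor genes, of which 5 were under 1 TPM. Glrb, the beta subunit that anchors glycine receptors, was at 195.3, 199.2, 208.9 and 196.2 TPM. Glra1, the adult alpha subunit, was at 165.6, 171.7, 161.8 and 167.3 TPM, and Glra2, the fetal one, at 6.17, 5.81, 7.95 and 6.19 TPM. Glra1 was thus 20.4 to 29.6 times Glra2 in a library. Gabbr1, a subunit of the metabotropic GABA receptor, was at 300.3, 300.4, 325.0 and 307.6 TPM and its partner Gabbr2 at 51.0 TPM. Of the GABA-A receptor subunits, Gabra3 and Gabra5 were among the 4 highest, with means of 62.9 and 34.4 TPM. Gabra6, the subunit of cerebellar granule cells, had 0 counts, which allows up to 0.103 TPM.

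Receptors for acetylcholine and monoamines were also present. Chrna4, Chrnb2 and Chrna7, subunits of neuronal nicotinic receptors, had means of 24.7, 19.0 and 11.3 TPM, and Chrm2, a muscarinic receptor, was at 27.8, 26.2, 28.8 and 28.7 TPM. Htr2c, the highest serotonin receptor gene, was at 37.2, 32.6, 43.4 and 38.8 TPM and Htr7 at 17.0 TPM. Drd2, a dopamine receptor, was at 10.9, 10.9, 12.6 and 12.3 TPM, against 0.45 TPM for Drd1a. Adra2a, the adrenergic receptor through which clonidine acts, was at 23.9, 22.01, 22.6 and 23.3 TPM, and Hrh3, a histamine receptor, at 15.8 TPM.

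Opioid receptor genes were all above 1 TPM. Oprl1, the nociceptin receptor, was at 35.9, 37.0, 42.5 and 39.1 TPM and was 4.49 to 6.30 times Oprm1, the mu receptor. Oprm1, Oprd1 and Oprk1 had means of 7.70, 5.72 and 4.63 TPM. Other peptide receptors were led by Ntsr2, an astrocyte gene, at 166.4 TPM, and Adcyap1r1, the PACAP receptor, at 91.9 TPM. Adora1, the adenosine A1 receptor, was at 74.2, 75.5, 77.5 and 72.5 TPM, and Cnr1, the neuronal cannabinoid receptor, at 19.8, 17.6, 20.2 and 20.6 TPM, against 0.25 TPM for Cnr2. Of 146 receptor genes analysed, 112 had a mean of at least 1 TPM and 51 of at least 10 TPM.

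Hox genes were on in all 4 clusters. Of 38 analysed, 32 had a mean of at least 1 TPM and 22 of at least 10 TPM, and Hoxd4 was not analysed here. The clusters lie on chromosomes 6 (HoxA), 11 (HoxB), 15 (HoxC) and 2 (HoxD) in GENCODE M21. Hoxb8, at chr11:96281905-96285315, was the highest, at 180.5, 168.3, 203.7 and 203.5 TPM (189.0 ± 17.6, SD, n = 4). Hoxa7 came next at 57.8, 56.7, 60.4 and 65.3 TPM. Its range overlapped neither that of Hoxb8 nor that of Hoxd8, which had a mean of 48.8 TPM. Hoxd8, Hoxb9 and Hoxa9, the last 2 at 48.2 and 47.9 TPM, had ranges that overlapped. Of the 37 neighbours in the whole order, 7 pairs had ranges that did not overlap. Transcripts of neighbouring Hox genes can share exons, so values of single members are less certain than sums.

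Levels differed between the paralog groups, which are numbered from head to tail. Groups 1 to 3, which act at hindbrain level, held 9.67% of Hox TPM, with Hoxd3 the highest at 41.8 TPM. Groups 4 to 7 held 30.4%, led by Hoxa7, Hoxb6 at 42.0 TPM, Hoxb7 at 29.9 TPM and Hoxc6 at 28.3 TPM. Groups 8 and 9, known for thoracic levels, held 47.4%. Hoxb8 alone was at 189 TPM of their summed 399.2 TPM, so this share rested largely on 1 gene. Groups 10 and 11, known for lumbar levels, held 11.6%, led by Hoxc10 at 39.9 TPM and Hoxa10 at 23.6 TPM. Groups 12 and 13 held 0.907%.

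The most caudal groups were also the least even. Groups 10 and 11 summed to 95.6, 97.6, 97.6 and 99.9 TPM, a CV of 1.83%. Groups 12 and 13 summed to 10.7, 8.71, 2.88 and 8.24 TPM, a CV of 43.8%, and library 7 was the lowest. Hoxc12 was at 6.76, 5.05, 2.27 and 4.72 TPM, Hoxc13 at 2.16, 1.62, 0.27 and 1.31 TPM, Hoxb13 at 0.94, 1.37, 0.03 and 1.37 TPM and Hoxa13 at 0.49, 0.59, 0.10 and 0.75 TPM. These 4 were lowest in library 7, with 32, 10, 1 and 1 expected counts there. The other two genes of these groups were not: Hoxd13 was at 0.31, 0.08, 0.16 and 0.03 TPM and Hoxd12 at 0.04, 0, 0.05 and 0.06 TPM. Groups 4 to 7 were higher in libraries 7 and 8, at 270.5 and 276.0 TPM, than in libraries 5 and 6, at 235.3 and 240.9 TPM. Whether the same length of cord was taken in each case was not tested.

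**Figure D4:**
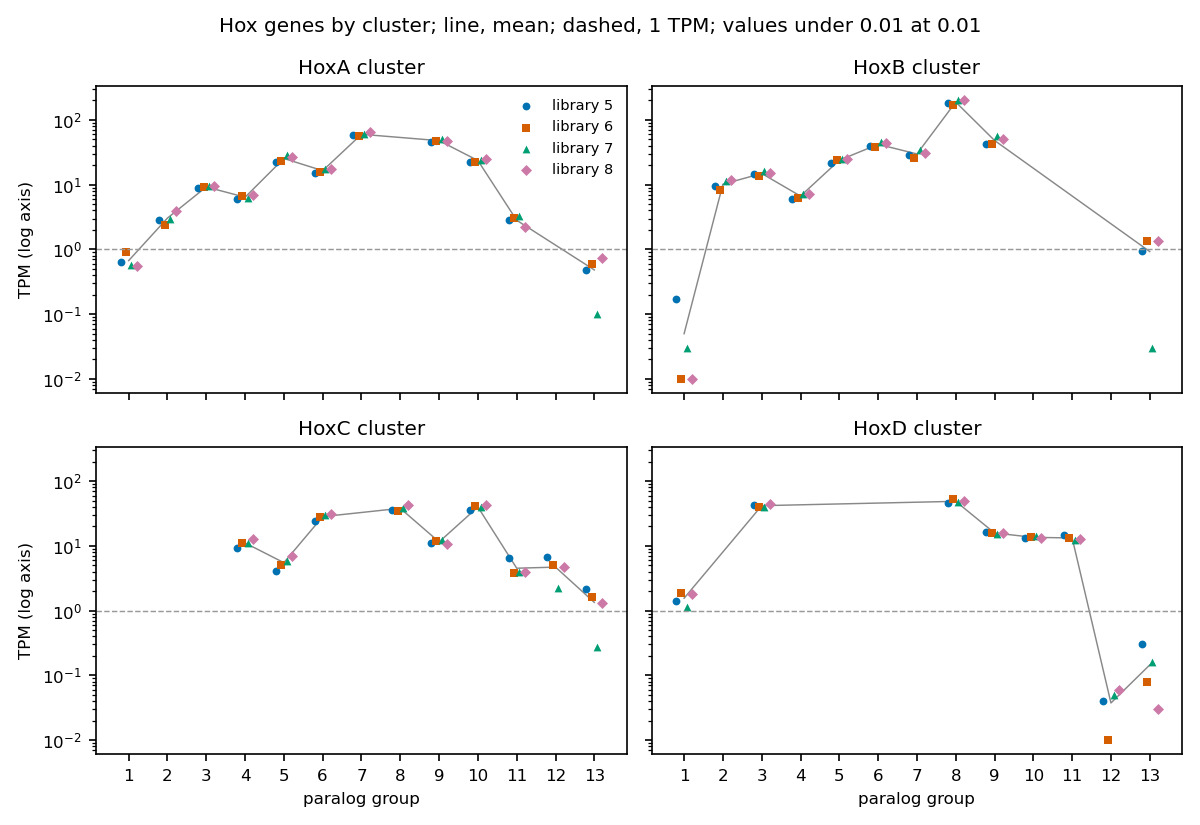
TPM on a log axis of 38 Hox genes against paralog group, 1 panel for each cluster, with 1 point for each library, the mean as a line and values under 0.01 drawn at 0.01. Hoxb8 is the highest gene, and Hoxa13, Hoxb13, Hoxc12 and Hoxc13 are lowest in library 7.

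Genes of regions rostral to the cord were near 0. Of 12 brain region genes, Neurod6 and En2 had means of 2.80 and 1.46 TPM and the other 10 were under 1 TPM. Otx1 and Otx2, factors of the forebrain and midbrain, had 0 counts in all 4 libraries, which allows up to 0.074 and 0.201 TPM. Both were named after their values were seen.

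Genes of nerve roots, ganglia, muscle, fat and blood were present and differed in amount between libraries. The Schwann cell list, the myelinating cells of peripheral nerve, summed to 2267, 1867, 1121 and 530.6 TPM. Pmp22, a protein of peripheral myelin, was at 707.2, 604.5, 392.2 and 218.5 TPM, and Prx, periaxin, at 70.2, 54.4, 34.7 and 14.9 TPM. Both had the order 5, 6, 7, 8 from high to low. Mbp, made by the myelinating cells of cord and nerve, had a CV of 4.80%.

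Sensory ganglion genes were mostly those of library 6. All 10 markers on the list were highest there, and their sum was 16.4, 59.4, 7.79 and 10.3 TPM. Scn10a, the sodium channel Nav1.8 of nociceptors, was at 0.90, 9.15, 0.02 and 0 TPM, from 101, 870, 2 and 0 expected counts. Scn11a, the channel Nav1.9, was at 0.49, 5.22, 0.01 and 0.01 TPM, and Avil, advillin, at 1.93, 13.9, 0.42 and 0.49 TPM. Pou4f1, also a gene of other neurons, was the most even, at 7.73, 8.94, 5.54 and 7.38 TPM. Without library 6 the mean of the summed list was 11.5 in place of 23.5 TPM, and that of Scn10a was 0.31 in place of 2.52 TPM.

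Skeletal muscle genes had another order. All 10 were highest in library 8 and lowest in library 7, and their sum was 637.2, 1717, 178.9 and 3018 TPM. Acta1, skeletal actin, was at 118.9, 348.7, 28.4 and 596.4 TPM and Tnnt3, fast troponin T, at 110.1, 313.4, 32.7 and 497.9 TPM. The mean sum without library 8 was 844.3 in place of 1388 TPM. Fabp4 and Cfd, genes of fat cells, were highest in library 5, at 29.1 and 4.06 TPM, and lowest in library 7, at 1.14 and 0.16 TPM. The fat list had a mean sum of 19.2 TPM, and of 12.2 TPM without library 5.

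Blood genes differed as well. Hbb-bs, adult beta globin, was at 1516, 1415, 1415 and 542.4 TPM, and Hba-a2, alpha globin, at 1245, 1222, 1200 and 444.8 TPM. Library 8 was lowest for both. S100a8 and S100a9, proteins of neutrophils, were highest in library 6, at 197.1 and 168.5 TPM, and lowest in library 8, at 24.6 and 22.2 TPM. The leukocyte list had a mean sum of 217.0 TPM, and of 141.1 TPM without library 6.

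**Figure D5:**
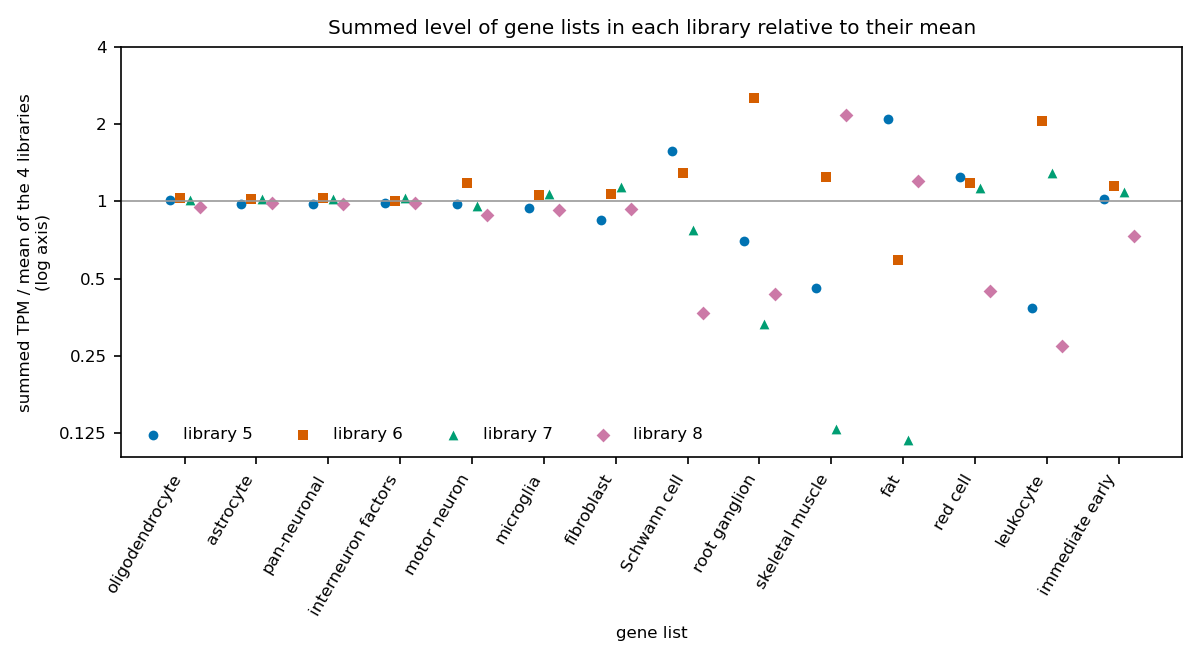
Summed TPM of 14 gene lists in each library divided by the mean of the 4 libraries, on a log axis. Oligodendrocyte, astrocyte, pan-neuronal and interneuron lists lie close to 1 in every library, while the Schwann cell, root ganglion, skeletal muscle, fat, red cell and leukocyte lists spread from below 0.5 to above 1.2.

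The spread across genes was measured as an excess CV, the coefficient of variation of TPM over the 4 libraries less the part that counting noise gives. Of 16133 genes at or above 1 TPM, 1172 (7.26%) had an excess CV of at least 0.25, and the median was 0.051. By level the share was 15.5% of genes from 1 to 10 TPM, 2.19% from 10 to 100 TPM, 1.76% from 100 to 1000 TPM and 9.09% of the 66 genes above. Of the 1172 genes, 487 were highest in library 6, 322 in library 8, 195 in library 7 and 168 in library 5. The share of all genes highest in each library was not computed, so these counts are not read as a trait of the variable genes.

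Beside that 7.26%, the share was 0 of 20 oligodendrocyte, 0 of 16 astrocyte, 0 of 20 pan-neuronal and 1 of 17 microglial genes. All the oligodendrocyte, astrocyte and pan-neuronal genes listed were above 10 TPM. Over all genes the share was 2.19% from 10 to 100 TPM and 1.76% from 100 to 1000 TPM. A share of 0 was thus close to that of genes at such levels. Among genes at or above 1 TPM in other cord lists, the share was 8 of 13 meningeal and vascular fibroblast genes and 3 of 9 ependymal genes. It was 3 of 16 motor neuron genes and 1 of 4 perivascular macrophage genes. From 1 to 10 TPM, where most of these ependymal and perivascular macrophage genes lay, the share over all genes was 15.5%. Of the motor neuron genes 9 were at or above 10 TPM, and of the fibroblast genes 6. With so few genes, the ependymal, motor neuron and perivascular macrophage counts are not read as a trait of those lists. Pericyte and smooth muscle genes, with 1 of 12, were close to the share over all genes. For neighbouring tissues it was 10 of 11 Schwann cell genes, 10 of 10 skeletal muscle genes, 5 of the 6 sensory ganglion genes at or above 1 TPM and 6 of 6 red cell genes at that level. No set was tested. The 15 most variable established genes, leaving out sex-linked ones, were led by Scn11a, Scn10a, Mybph, Avil, Pirt and Ucp1. Mybph, a muscle gene, was at 0.07, 0.26, 0.25 and 5.19 TPM, and Pirt, a gene of sensory neurons, at 2.13, 12.52, 0.65 and 0.36 TPM. Ucp1, the uncoupling protein of brown fat, was at 4.37, 0.04, 0.04 and 1.10 TPM. Others were Tusc5, Actc1, Tmem45b, Trappc3l, Fxyd2, Tmem233, Acpp and Igfn1. Of these 15, 11 were highest in library 6, 3 in library 8 and 1 in library 5, again with no share over all genes to set beside them.

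The 10 least variable genes at or above 10 TPM included Nupl1, Cdk5r2, Tnks2, Cbx6, Nrip2, Arhgef12, Dgcr8, Eef1b2 and Zfp651, with CVs of 0.311 to 0.586%. Cdk5r2, an activator of a neuronal kinase, was at 62.7, 62.5, 63.0 and 62.4 TPM. The excess CV of all 10 was 0, so the order among them was within counting noise. Gapdh, a widely used reference gene, was less even than these: it had a CV of 5.29% and a range of 2005 to 2220 TPM.

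Of 14 immediate early genes, which respond to activity, 13 were lowest in library 8, as were 8 of 14 circadian genes. Of 12 glucocorticoid-responsive genes, 6 were lowest in library 8 and 6 in library 5. Over all 16133 genes at or above 1 TPM, 28.1% were lowest in library 8 and 37.6% in library 5. Of the immediate early genes, Nr4a1, among the most variable, was at 13.8, 19.6, 13.99 and 7.92 TPM. Egr2 is also a Schwann cell gene and was at 3.07, 3.50, 2.12 and 1.04 TPM. Per1, a clock gene that glucocorticoid also drives, was at 27.2, 32.6, 32.5 and 19.1 TPM, while Clock was at 22.7, 21.9, 24.0 and 23.4 TPM. Sgk1, a kinase gene driven by glucocorticoid and found in oligodendrocytes, was at 148.7, 194.3, 223.8 and 56.4 TPM. Fkbp5, a further glucocorticoid target, was at 15.6, 17.9, 17.4 and 17.1 TPM and did not share that order. Xist, blood genes and muscle genes also set library 8 apart, and their part in these values was not tested.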

How the data were processed

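PolyA-selected, stranded libraries of spinal cord RNA were read as 75-base pairs, per the labels' protocols. Bowtie2 2.2.0 and RSEM 1.2.12 were used, per the submitters' processing notes. Not given in the sources used here are the genome build, annotation and strand setting. Each deposited table lists 38924 Ensembl genes with an expected count, which RSEM estimates by dividing reads among genes, and TPM, per the file headers. The deposited TPM was the unit of all levels. Expected counts served for depth and counting noise, and were rounded for edgeR 4.0.16 in R 4.3.3, used in alternatives only. Levels of close paralogs, overlapping genes and genes of short effective length are uncertain.

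Values are means with SD over 4 libraries. No groups were compared and no differential test was run; Dixon's criterion and a chi-square between pairs of libraries were used as checks only. The excess CV is the square root of the squared CV less the reciprocal of the mean expected count, 0 where negative, with a threshold of 0.25. Tested on simulated data of 16133 genes, it marked 88.0% of the genes given a spread of 0.6 and 1.68% of the rest. The rest were all given the same spread, close to 0.051, the median excess CV of these data. Errors in dividing reads among genes were not simulated. The 1.68% thus does not give the rate among genes of intermediate spread. No pair of libraries agreed within sampling noise: chi-square over its degrees of freedom was 13.4 to 30.3. Reads carry no molecular identifiers, so a floor of 3 counts covers counting error only. Positions are from GENCODE M21, matched by gene ID for 37607 IDs (96.62%), and promoters from RefSeq GRCm38.p6.

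Members and gene lists were chosen with earlier results of these data known. The naming rule took the 30 highest nuclear genes, mitochondrial genes, the 5 highest and lowest members of cell type lists and any under 1 TPM where 5 or fewer, the 2 highest of neighbouring tissue lists, all transmitter, Hox and sex-linked genes, small receptor families whole and otherwise their 4 highest and 2 lowest, the 15 most variable and 10 least variable genes, and the 2 most and the least variable of the other lists. Alternatives were other thresholds, pseudocounts, filters, scalings, the median, and leaving out each library. Some genes that the rule takes are not reported here.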

Additional observations from a re-analysis of the deposited data

Results flagged for a closer look

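With 4 libraries, a value was singled out when its gap to the nearest other, divided by the whole range, exceeded Dixon's 95% critical value. Chance gives about 1 in 20 for items not chosen by their values. Here 32 of 361 items (8.86%) were singled out, 19 of them for library 6, 9 for library 8, 2 for library 5 and 2 for library 7. The items include genes named for being the most variable or sex-linked, and list sums beside their own members, so this share is not to be read against that rate. No explanation was tested for any of them.

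Library 6 stood apart in the mitochondrial share (19.3% of TPM), mt-Atp8 (21617 TPM), mt-Atp6 (22951), mt-Nd2 (7299), mt-Nd3 (4821) and mt-Nd4 (9089), each lower than in the other libraries. It was higher in the summed sensory ganglion list (59.4 TPM) and in Avil (13.9), Scn10a (9.15), Scn11a (5.22), Pirt (12.52), Tusc5 (9.79), Fxyd2 (25.9), Acpp (5.96), Nmb (13.3) and Calcb (23.3 TPM). Ckb was higher at 2136 TPM, and Gpr34 (4.96) and Adra2c (5.90 TPM) were lower there.

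Library 8 stood apart in the red cell list, which summed to 1516 TPM, with Hbb-bs at 542.4 and Hba-a2 at 444.8 TPM, all lower than elsewhere. Its Xist (108.8 TPM) was higher, and Kdm5d (0), Uty (0.01) and Eif2s3y (0.15 TPM) lower. Actc1 (9.90 TPM) and Mybph (5.19 TPM), of muscle, were higher.

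Library 5 was higher in Hoxc11 (6.46 TPM) and lower in Dmp1 (5.30 TPM). Library 7 was lower in Gm26924 (8875 TPM) and higher in Pdyn (10.9 TPM).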

How the results depend on the processing

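Leaving out each library in turn kept all 8 summary values within 1 SD, or counts within 1.5 times. A mean over 4 libraries cannot move by 1 SD when a single library is left out. For the means this outcome was therefore fixed in advance and is no check. The mean TPM of named genes at or above 1 TPM moved by over 1.5 times for 2 of 313 genes without library 5, 15 without library 6, 0 without library 7 and 6 without library 8. Without library 5 they were Ucp1 (0.393 TPM) and Fabp4 (9.16 TPM). Without library 6 they were 11 sensory ganglion or most variable genes from Scn11a (0.17 TPM) to Fxyd2 (3.26 TPM), with Nmb (4.20 TPM), Folr1 (0.613 TPM), S100a8 (61.1 TPM) and S100a9 (53.2 TPM). Without library 8 they were Xist (0.0167 TPM), Mybph (0.193 TPM), Actc1 (0.873 TPM), Igfn1 (1.46 TPM), Acta1 (165.3 TPM) and Tnnt3 (152.1 TPM).

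Without the mitochondrially encoded genes in the total, the 100 highest genes held 22.5% and the oligodendrocyte list summed to 40048 TPM. By expected counts, the 100 highest genes held 24.8%, the mitochondrial genes 8.21%, the oligodendrocyte list 34183 CPM, and the ratio of Slc32a1 to Slc17a6 was 0.852. The lowest correlation was 0.948 with a pseudocount of 0.1, 0.988 with no filter and 0.993 with log2 CPM and TMM scaling. The number of genes with an excess CV of at least 0.25 was 4702 with no filter on TPM and 351 at a mean of at least 5 TPM, and 1051 with TMM scaling and 1239 by edgeR's gene-wise value, both within 1.5 times. Added after seeing the data, genes with an effective length of at least 200 bases gave 35.0% for the 100 highest genes and a lowest correlation of 0.989, and the mitochondrial share without mt-Atp8 was 18.2%. The cause of these differences was not tested. The number of genes at or above 1 TPM was 14457 to 17756 and of Hox genes 30 to 34 under the other settings. The median over libraries was within 1 SD of the mean for all 387 named genes, which holds for any set of values and is no check. For Xist the mean was 27.2 TPM and the median 0.02 TPM. Rescaling without mitochondrial genes multiplied levels by a like factor in each library and moved 252 of 350 nuclear named genes and 49 of 55 list sums by over 1 SD. No paired analysis was possible because no groups were compared. Levels of genes with under 3 counts in a library are limited by depth.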
